A study of Mus musculus with 47 samples.

Results

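Progesterone acts on the brain through its nuclear receptor and through proteins of the cell membrane. The 7 genes described here encode such membrane proteins, and their transcripts were followed over 4 brain regions and 4 stages of the mouse estrous cycle. They were found by matching the Ensembl identifiers of the count tables to their symbols, and all 7 were present among 37315 genes. Paqr5, Paqr6, Paqr7, Paqr8 and Paqr9 encode the membrane progestin receptors of the PAQR family, which cross the membrane several times and bind progestins. Pgrmc1 and Pgrmc2 encode the progesterone receptor membrane components, small proteins with a single membrane span and a heme-binding domain related to cytochrome b5.

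The PAQR receptors are known for rapid responses to progestins, often through inhibitory G proteins. Paqr7 (mPR alpha) and Paqr8 (mPR beta) take part in the maturation of fish oocytes, and Paqr6 (mPR delta) is known in human cells to bind the neurosteroid allopregnanolone as well. Pgrmc1 binds cytochrome P450 enzymes of sterol synthesis and, in the hypothalamus of female rodents, has been studied as a mediator of progesterone effects on reproduction.

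The study asked how stable gene expression in the brain is over the estrous cycle. RNA was sequenced from whole hypothalamus, hippocampus, neocortex and cerebellum of female mice of the inbred strain C57BL/6J, grouped as proestrus, estrus, metestrus or diestrus. Each stage and region had 3 libraries, except that 2 were analysed for estrus in the neocortex, which made 47 in all. Mice were 91 days old in proestrus, 90 in estrus, 90 or 91 in metestrus and 90 or 92 in diestrus. In estrus minus proestrus, age therefore cannot be told apart from stage. Diestrus and proestrus mice shared no age either. Hippocampus libraries were prepared by a protocol of their own, which cannot be told apart from the region. The labels say that the regions were taken from the same animals but do not say which libraries share one.

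Library totals ran over 1826368 to 8264980 counts in the hypothalamus, 7672217 to 15680876 counts in the hippocampus, 6311867 to 10535466 counts in the neocortex and 2558644 to 7996961 counts in the cerebellum. Sums of regional marker lists followed the labels. The 9 hypothalamic genes summed to 517 to 948 CPM (counts-per-million of the library total) in hypothalamus libraries. In the others they summed to at most 48.2 CPM. The 9 genes of cerebellar granule and Purkinje cells summed to 5854 to 6858 CPM in cerebellum libraries and to at most 343 CPM elsewhere. The hippocampal and neocortical lists were likewise highest in their own region in every library. Of the single genes in these lists, Npy and Rorb were not highest in their own region by mean. Npy of the hypothalamic list had 19.7 CPM in the hypothalamus and 40.67 CPM in the neocortex. Rorb of the neocortical list had 61.55 CPM in the neocortex and 65.37 CPM in the hypothalamus. Lars2 took 13.5% and 10.6% of the counts in the hypothalamus libraries Estrus 3 and Metestrus 3. Its share ran from 1.34% to 8.62% in the other hypothalamus libraries and was at most 3.79% in those of the other regions. In bulk tissue, fewer cells of a type and less RNA per cell cannot be told apart.

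The upstream sequences of 4 members are shown, those of the 3 genes with the widest differences between regions and that of Pgrmc2, the near relative of Pgrmc1. They are taken from RefSeq (build GRCm38.p6), run 5′ to 3′ on the gene's strand and lie before the gene. Capitals mark GC boxes (GGGCGG on either strand) and CCAAT boxes (CCAAT on either strand).
Paqr6, chr3:88364339-88364583, plus strand: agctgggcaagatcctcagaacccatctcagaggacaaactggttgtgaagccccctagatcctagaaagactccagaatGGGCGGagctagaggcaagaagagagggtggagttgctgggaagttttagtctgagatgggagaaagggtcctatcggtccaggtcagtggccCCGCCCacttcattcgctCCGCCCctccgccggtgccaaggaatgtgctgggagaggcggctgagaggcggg
Paqr8, chr1:20890298-20890547, plus strand: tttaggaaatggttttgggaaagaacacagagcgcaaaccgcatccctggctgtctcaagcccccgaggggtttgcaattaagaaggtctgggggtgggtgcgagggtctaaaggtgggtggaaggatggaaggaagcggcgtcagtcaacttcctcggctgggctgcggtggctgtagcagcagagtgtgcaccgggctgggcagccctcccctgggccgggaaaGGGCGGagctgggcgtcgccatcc
Pgrmc1, chrX:36597943-36598192, plus strand: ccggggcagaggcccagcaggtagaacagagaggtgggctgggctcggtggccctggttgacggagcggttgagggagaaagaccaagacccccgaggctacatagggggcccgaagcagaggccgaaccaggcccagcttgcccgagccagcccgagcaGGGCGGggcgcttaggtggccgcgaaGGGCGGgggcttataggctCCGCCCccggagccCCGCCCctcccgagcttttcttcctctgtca
Pgrmc2, chr3:41083047-41083296, minus strand: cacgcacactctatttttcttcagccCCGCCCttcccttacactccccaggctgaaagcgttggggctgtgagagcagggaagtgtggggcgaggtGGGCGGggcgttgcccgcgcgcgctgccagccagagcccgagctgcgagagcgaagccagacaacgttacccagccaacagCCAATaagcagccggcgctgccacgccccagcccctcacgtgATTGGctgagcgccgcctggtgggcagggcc

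Upstream of Paqr6 there were 3 GC boxes, of Paqr8 1, of Pgrmc1 4 and of Pgrmc2 2, and of these 4 stretches that of Pgrmc2 was the only one with CCAAT boxes, with 2. The RefSeq table held 8 windows of 300 bases, from 250 before to 50 after a start, for 6 of the members. The G and C share of these windows was 62.0% for Paqr6, 67.7% for Paqr5, 69.0% for Pgrmc1 and 69.3% for Pgrmc2, and the median over all 32851 windows was 52.7%. Paqr7 and Paqr8 each had a pair of windows that differed, at 52.3% and 67.0% for Paqr7 and at 64.3% and 47.7% for Paqr8. A GC box stood in 7 of the 8 windows, against 35.7% of all windows, and a CCAAT box in 2 of the 8, against 37.4%. The letters TGTTCT of the progesterone response element, searched on both strands, stood in both windows of Paqr8 and in that of Pgrmc1. They stood in 19.0% of all windows. The letters AGGTCA of the estrogen response element, searched likewise, stood in the window of Paqr6 and in the 47.7% window of Paqr8. Of all windows, 16.3% held them. The TATA box letters TATAAA, searched on both strands, stood in 13.6% of all windows and in 0 of the 8. A match of letters is a description of the sequence, and no binding was measured.

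The members lie apart from each other in the genome (GRCm38, GENCODE M21). Paqr5 (ENSMUSG00000032278) is at chr9:61953481-62026856 on the minus strand, and Paqr9 (ENSMUSG00000064225), which has 1 exon, at chr9:95559657-95568023 on the plus strand. Paqr6 (ENSMUSG00000041423) is at chr3:88364584-88368541, Paqr7 (ENSMUSG00000037348) at chr4:134496697-134510235 and Paqr8 (ENSMUSG00000025931) at chr1:20890606-20939650, all on the plus strand. Pgrmc1 (ENSMUSG00000006373) is at chrX:36598206-36606079 on the plus strand and Pgrmc2 (ENSMUSG00000049940) at chr3:41066326-41083046 on the minus strand. All 7 are protein coding, and no exon of another annotated gene overlapped their exons.

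To compare the members with each other, CPM was divided by the length of the merged exons. Pgrmc1 had the highest level per kb in each region, at 219.6 ± 39.0 CPM in the hypothalamus, 119 ± 8.03 CPM in the hippocampus, 103 ± 3.84 CPM in the neocortex and 83.9 ± 6.59 CPM in the cerebellum (SD, n = 12, and 11 in the neocortex). Its part of the summed level of the 7 genes per kb was 71.6% in the hypothalamus and 43.3% in the cerebellum. Among protein-coding genes with counts, it lay at percentile 99.7 in the hypothalamus and 98.2 in the cerebellum.

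Pgrmc2 and Paqr8 followed. Pgrmc2 stood at 29.9 ± 4.31 CPM in the hypothalamus, 29.5 ± 3.56 CPM in the hippocampus, 26.4 ± 1.32 CPM in the neocortex and 22.8 ± 1.31 CPM in the cerebellum per kb. Paqr8 stood at 26.0 ± 4.07 CPM in the hypothalamus, 25.9 ± 2.69 CPM in the hippocampus, 26.0 ± 1.78 CPM in the neocortex and 56.6 ± 4.90 CPM in the cerebellum per kb, and in the cerebellum it was above Pgrmc2. Paqr7 came next in each region, with 14.6 to 18.6 CPM per kb.

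The other 3 receptors were lower. Paqr6 had 8.69 and 11.8 CPM per kb in the hypothalamus and cerebellum, where it was above Paqr9 with 2.88 and 2.68 CPM per kb. In the hippocampus and neocortex it had 2.71 and 1.33 CPM per kb and was below Paqr9 with 4.21 and 3.58 CPM per kb. Paqr5 was the lowest of the 7 genes in each region, between 0.672 and 1.15 CPM per kb. These ranks were the same when the longest transcript was used as the length.

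**Figure D1:**
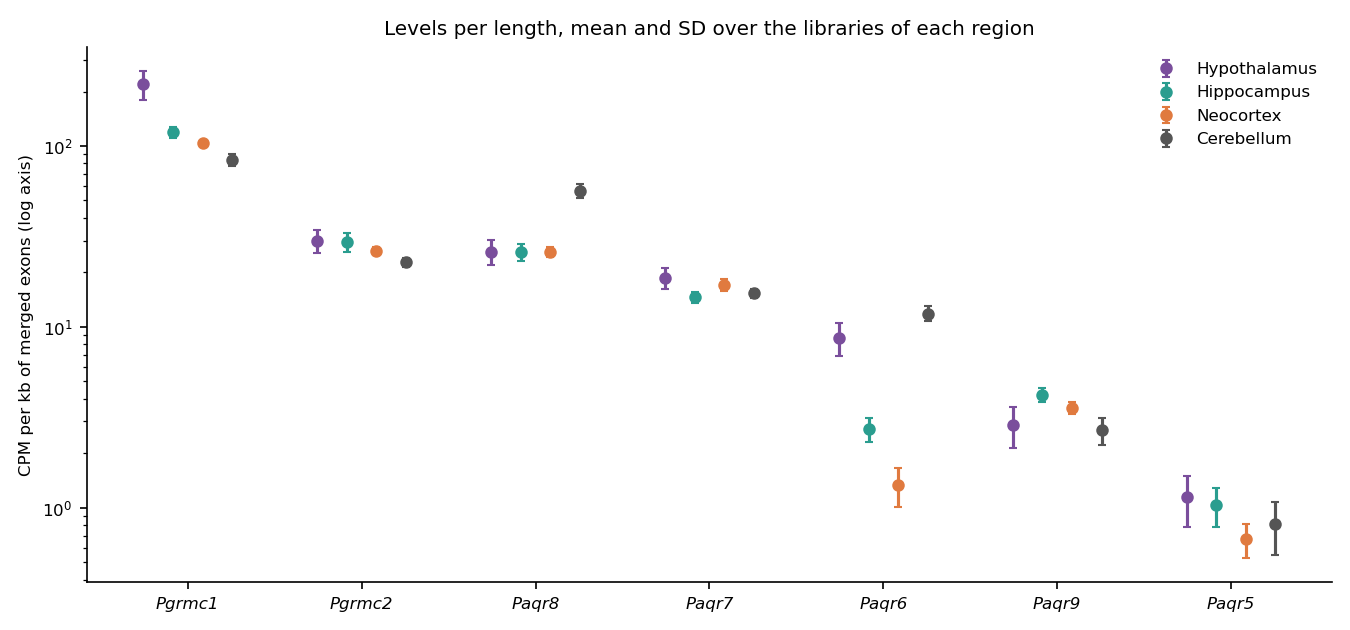
Level of each gene in CPM per kb of merged exons (y axis, log scale) for the hypothalamus, hippocampus, neocortex and cerebellum; points are means and bars SD over 12 libraries of a region (11 in the neocortex). Pgrmc1 is highest and Paqr5 lowest in each region, and Paqr6 spreads from 1.33 in the neocortex to 11.8 in the cerebellum.

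The regions were compared over all 47 libraries with edgeR's quasi-likelihood test, with libraries scaled by the trimmed mean of M-values (TMM), stage as a covariate and Benjamini-Hochberg adjustment over 18152 genes at 0.05. A further test in the same fit (glmTreat) asked whether a difference was over 2-fold. Most genes differed between any pair of regions, and the members' counts are read against that background. In hypothalamus minus hippocampus 4 of 7 members passed, against 74.2% of all genes tested, and 1 was over 2-fold apart, against 16%. In hypothalamus minus neocortex 4 passed, against 73.6%, and 1 was over 2-fold apart, against 17.7%. In hypothalamus minus cerebellum 6 passed, against 74.6%, and 1 was over 2-fold apart, against 19.9%.

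In hippocampus minus neocortex 4 members passed, against 64% of all genes, and 0 were over 2-fold apart by edgeR, against 9.27%. DESeq2 and limma voom also found 0 there, and the smallest unadjusted p for a member was 0.513, that of Paqr6, so 0 members had an unadjusted p under 0.05 in edgeR. In hippocampus minus cerebellum 6 passed, against 76%, and 1 was over 2-fold apart, against 20.5%. In neocortex minus cerebellum 6 passed, against 68.2%, and 1 was over 2-fold apart, against 17.2%. With 7 members, these shares lay near the background.

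**Figure D2:**
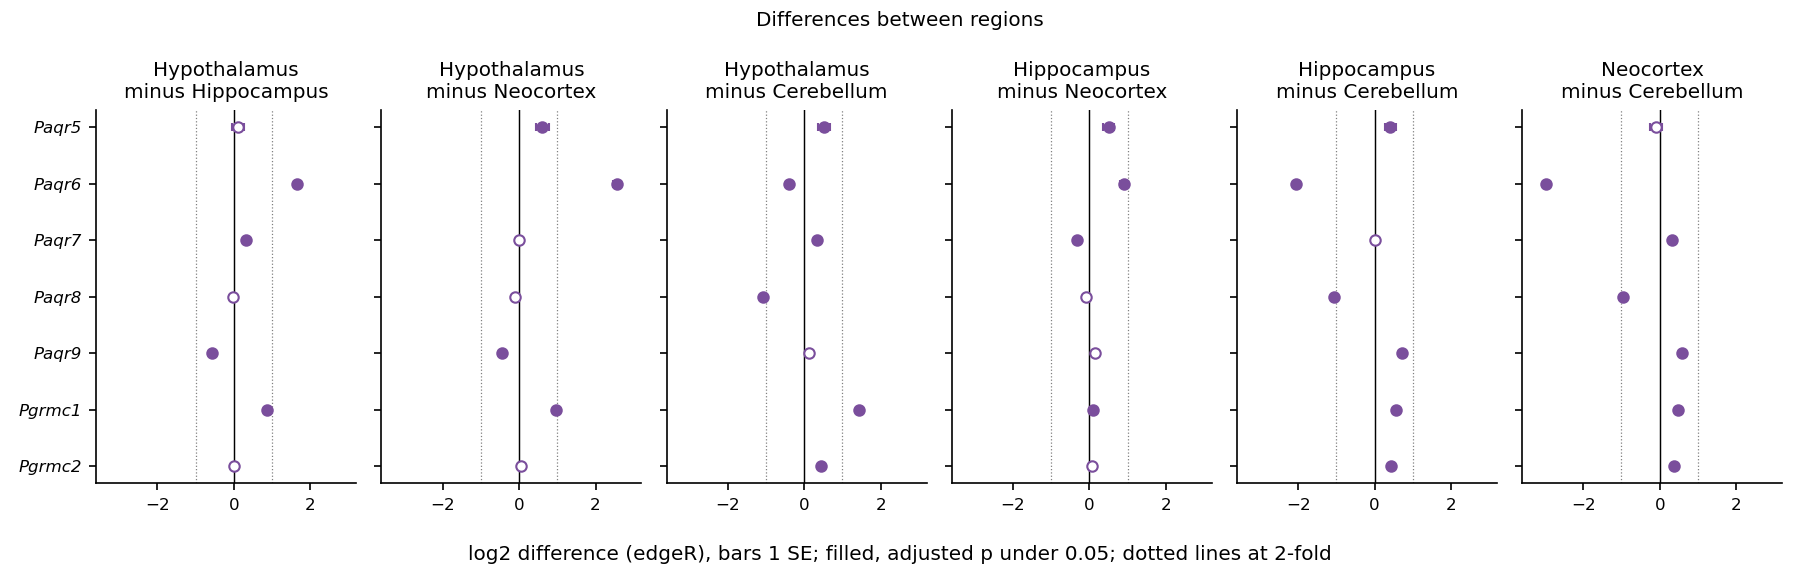
Differences between regions in log2 (x axis), 1 panel per contrast and 1 row per gene; points are edgeR estimates, bars 1 SE, filled points have an adjusted p under 0.05 and dotted lines mark 2-fold. Paqr6 runs from 2.57 in hypothalamus minus neocortex to -2.96 in neocortex minus cerebellum, and Paqr8 lies near the 2-fold line in the 3 contrasts with the cerebellum.

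Paqr6, the mPR delta gene, had the widest range between regions. The lowest, median and highest library had 13.1, 20.6 and 31.1 CPM in the hypothalamus, 4.14, 6.92 and 8.01 CPM in the hippocampus, 2.06, 3.02 and 4.74 CPM in the neocortex and 24.2, 28.3 and 34.4 CPM in the cerebellum. Every hypothalamus and cerebellum library was above every hippocampus and neocortex library. Paqr6 was 5.94-fold higher in the hypothalamus than in the neocortex (log2 2.57, SE 0.11, edgeR adjusted p = 2.14e-27) and 3.16-fold higher than in the hippocampus (log2 1.66, SE 0.09). It was lower in the hippocampus than in the cerebellum (log2 -2.05, SE 0.09) and lower in the neocortex than in the cerebellum (log2 -2.96, SE 0.10). These 4 differences were past 2-fold, the weakest with an adjusted glmTreat p of 2.2e-09.

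The remaining contrasts of Paqr6 were smaller. Hypothalamus minus cerebellum was -0.39 on the log2 scale (SE 0.08, edgeR adjusted p = 4.92e-05), with libraries that overlapped. Hippocampus minus neocortex was 0.91 (SE 0.11), also with overlap. From high to low, Paqr6 thus ran through cerebellum, hypothalamus, hippocampus and neocortex, and each neighbouring pair passed the test. The stage means kept that order, with 17.8 to 23.8 CPM in the hypothalamus, 6.04 to 7.11 CPM in the hippocampus, 2.56 to 4.37 CPM in the neocortex and 28.2 to 30.0 CPM in the cerebellum.

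Paqr8, the mPR beta gene, was high in the cerebellum. The lowest, median and highest library had 108, 144 and 180.1 CPM in the hypothalamus, 122, 142 and 169.6 CPM in the hippocampus, 128, 140.1 and 160.0 CPM in the neocortex and 272, 310.3 and 350.1 CPM in the cerebellum. Every cerebellum library was above every library of the other 3 regions. Against the cerebellum, Paqr8 was lower in the hypothalamus (log2 -1.08, SE 0.05, edgeR adjusted p = 1.13e-23), in the hippocampus (log2 -1.06, SE 0.05) and in the neocortex (log2 -0.96, SE 0.05). With TMM scaling these did not pass the 2-fold test (edgeR glmTreat adjusted p = 0.116, 0.213 and 1 in that order), and with scaling by the total count they did (log2 -1.12, -1.13 and -1.14). In neocortex minus cerebellum, the median of all genes was -0.145 log2 with that scaling and 0.002 with TMM, a shift of the same sign as that of Paqr8, and in the other 5 contrasts it moved by less than 0.1.

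Among the other 3 regions, Paqr8 did not differ past the threshold, with edgeR adjusted p-values of 0.740 in hypothalamus minus hippocampus, 0.0585 in hypothalamus minus neocortex (log2 -0.12) and 0.121 in hippocampus minus neocortex (log2 -0.09). Both contrasts with the neocortex passed with weighted limma voom (log2 -0.13 and -0.13). Hypothalamus minus neocortex also passed with no filter on low counts (log2 -0.13) and without hypothalamus Estrus 3 (log2 -0.12) or Diestrus 1 (log2 -0.13).

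Paqr7, the mPR alpha gene, was higher in the hypothalamus and neocortex than in the other 2 regions. Its lowest, median and highest library had 61.9, 82.2 and 96.8 CPM in the hypothalamus, 56.97, 62.1 and 71.4 CPM in the hippocampus, 66.8, 71.2 and 80.3 CPM in the neocortex and 55.8, 66.2 and 70.6 CPM in the cerebellum. The ranges of all regions overlapped. Paqr7 was 1.25-fold higher in the hypothalamus than in the hippocampus (log2 0.32, SE 0.04, edgeR adjusted p = 6.51e-09) and 1.25-fold higher than in the cerebellum. It was lower in the hippocampus than in the neocortex (log2 -0.33, SE 0.04) and 1.26-fold higher in the neocortex than in the cerebellum. Hypothalamus minus neocortex (log2 -0.01, edgeR adjusted p = 0.922) and hippocampus minus cerebellum (log2 0.00209, edgeR adjusted p = 0.973) did not pass. With scaling by the total count, hypothalamus minus neocortex was 0.13 and passed (adjusted p = 0.0404 by edgeR).

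Paqr9, the mPR epsilon gene, was higher in the hippocampus and neocortex. Its lowest, median and highest library had 7.67, 24.8 and 31.8 CPM in the hypothalamus, 31.0, 35.1 and 44.1 CPM in the hippocampus, 26.8, 29.8 and 34.1 CPM in the neocortex and 18.1, 21.8 and 29.4 CPM in the cerebellum. Hippocampus and cerebellum libraries did not overlap, and the other regions did. The lowest library was hypothalamus Estrus 3, with 14 counts, which was rich in Lars2, whose part in that level was not tested. Paqr9 was lower in the hypothalamus than in the hippocampus (log2 -0.58, SE 0.08, and -0.59 without Estrus 3 and Metestrus 3) and than in the neocortex (log2 -0.44, SE 0.08). Against the cerebellum it was 1.64-fold higher in the hippocampus (log2 0.71, SE 0.08) and 1.49-fold higher in the neocortex.

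The 2 further contrasts of Paqr9 lay near the threshold. Hippocampus minus neocortex was 0.14 (edgeR adjusted p = 0.0924) and passed with DESeq2 (log2 0.17), with RLE factors (log2 0.17), with the filter at a mean CPM of 1 (log2 0.16) and with the total count (log2 0.24). It also passed without the 2 hypothalamus libraries Estrus 3 and Metestrus 3 (log2 0.14), without hippocampus Estrus 3 (log2 0.17) and without hippocampus Metestrus 3 (log2 0.17). Hypothalamus minus cerebellum was 0.14 (edgeR adjusted p = 0.145) and passed with DESeq2 (log2 0.20), with RLE factors (log2 0.20), without hypothalamus Estrus 3 (log2 0.18) and without cerebellum Estrus 2 (log2 0.19).

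Paqr5, the mPR gamma gene, had the fewest counts, 5 to 39 per library in the hypothalamus and 31 to 86 in the hippocampus. The lowest, median and highest library had 2.21, 4.82 and 7.78 CPM in the hypothalamus, 2.90, 3.82 and 5.50 CPM in the hippocampus, 1.71, 2.64 and 3.802 CPM in the neocortex and 1.75, 3.31 and 5.56 CPM in the cerebellum. All regions overlapped. Paqr5 was 1.53-fold higher in the hypothalamus than in the neocortex (log2 0.61, SE 0.16, edgeR adjusted p = 0.000847) and 1.43-fold higher than in the cerebellum (log2 0.52, SE 0.17). It was 1.42-fold higher in the hippocampus than in the neocortex and 1.33-fold higher than in the cerebellum. Hypothalamus minus hippocampus (log2 0.11, SE 0.15) and neocortex minus cerebellum (log2 -0.09, SE 0.16) did not pass.

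Pgrmc1 was highest in the hypothalamus. The lowest, median and highest library had 278, 424 and 490.0 CPM in the hypothalamus, 194, 226 and 238 CPM in the hippocampus, 179.7, 194 and 202 CPM in the neocortex and 137, 154 and 175 CPM in the cerebellum. Each hypothalamus library was above those of the other 3 regions, and each cerebellum library was below them. Pgrmc1 was 2.70-fold higher in the hypothalamus than in the cerebellum (log2 1.43, SE 0.04, edgeR adjusted p = 3.1e-35), past 2-fold (edgeR glmTreat adjusted p = 3.13e-15). It was 1.94-fold higher than in the neocortex (log2 0.96, SE 0.04) and 1.81-fold higher than in the hippocampus (log2 0.86, SE 0.04).

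Below the hypothalamus, Pgrmc1 ran through hippocampus, neocortex and cerebellum, and each neighbouring pair passed the test. Hippocampus minus neocortex was the smallest step (log2 0.10, SE 0.04, edgeR adjusted p = 0.0210), with libraries that overlapped, and neocortex minus cerebellum was 0.47 (SE 0.04). In the hypothalamus the SD of Pgrmc1 was 19.6 CPM with TMM scaling and 72.4 CPM without it (n = 12). TMM factors ran from 0.679 to 1.19 in that region.

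Pgrmc2 was lower in the cerebellum than elsewhere. The lowest, median and highest library had 72.3, 101 and 116 CPM in the hypothalamus, 77.7, 98.4 and 117 CPM in the hippocampus, 77.8, 84.4 and 92.3 CPM in the neocortex and 65.3, 74.1 and 79.5 CPM in the cerebellum. The ranges overlapped between all regions. Against the cerebellum, Pgrmc2 was 1.35-fold higher in the hypothalamus (log2 0.43, SE 0.05, edgeR adjusted p = 3.36e-11), 1.36-fold higher in the hippocampus and 1.30-fold higher in the neocortex. The contrasts among those 3 regions were -0.01, 0.05 and 0.06 on the log2 scale and did not pass with edgeR and TMM scaling. Hypothalamus minus neocortex passed with DESeq2 (log2 0.13), with RLE factors (log2 0.13), with the filter at a mean CPM of 1 (log2 0.12), with the total count (log2 0.19), without hypothalamus Proestrus 3 (log2 0.11) and without hippocampus Proestrus 1 (log2 0.10). Hippocampus minus neocortex passed with the total count (log2 0.17), where the median of all genes was 0.103.

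**Figure D3:**
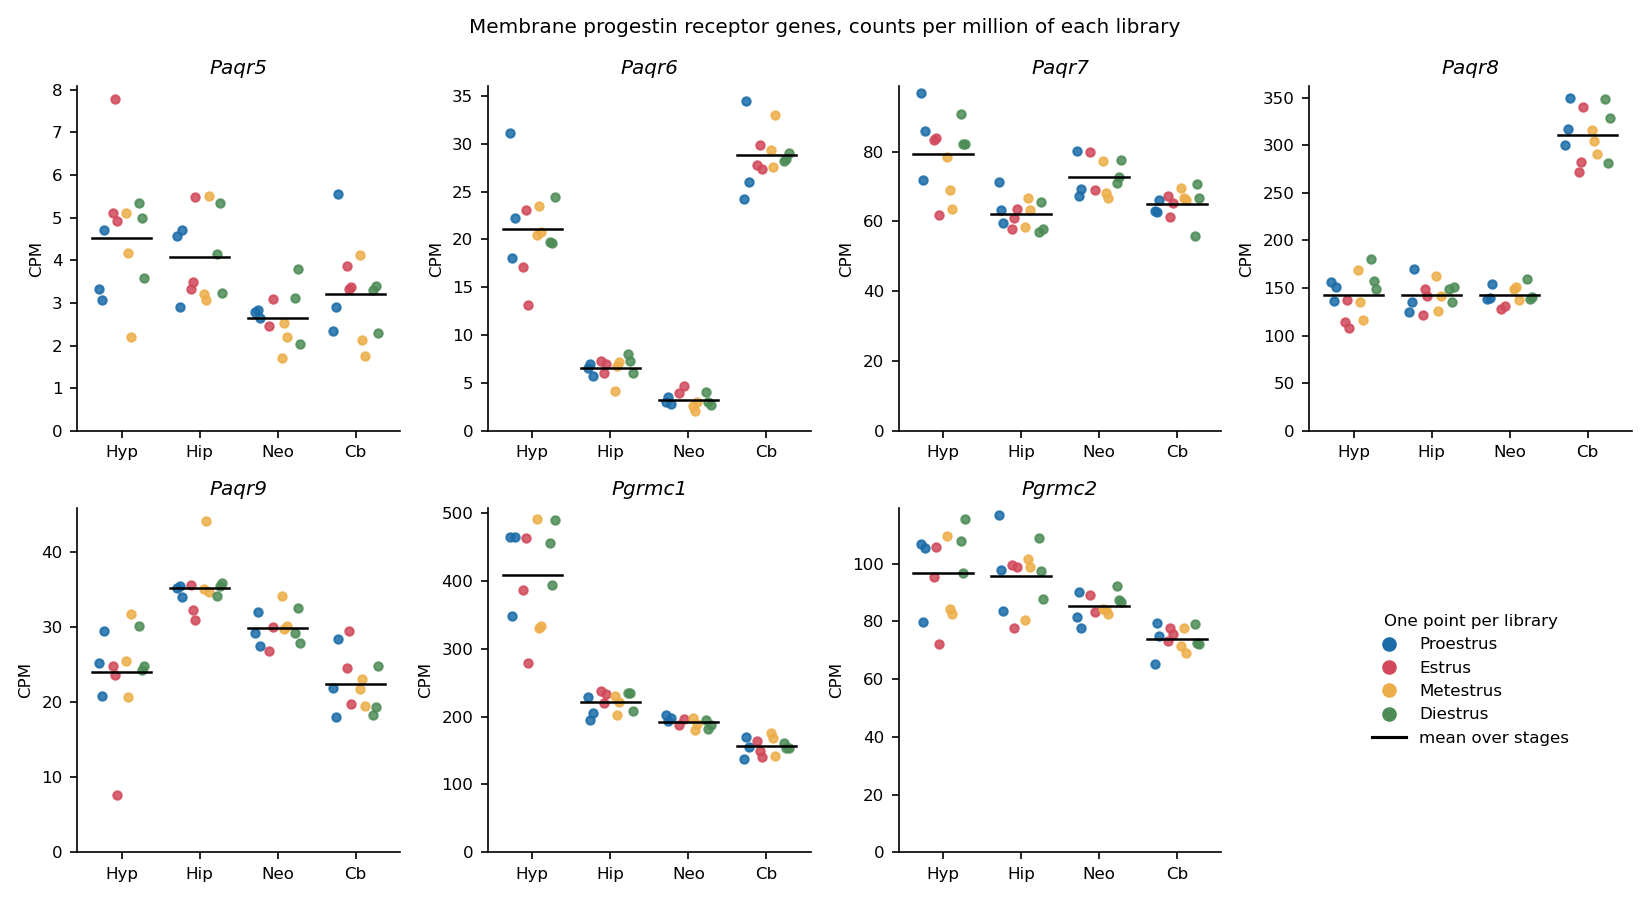
Level of each gene in CPM (y axis, own scale per panel) in every library of the hypothalamus (Hyp), hippocampus (Hip), neocortex (Neo) and cerebellum (Cb); points are libraries, colours stages and black lines means over stages. Paqr6 is high in the hypothalamus and cerebellum, Paqr8 in the cerebellum and Pgrmc1 in the hypothalamus, and the colours mix within most regions.

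Stages were compared within each region. By edgeR, 0 of 7 members passed the stage test in each region, against 0% of all genes, and 0 of the 28 member tests had an unadjusted p under 0.05, against 2.6% over all genes. DESeq2 called 0 members and 4 of all genes, with 0 of 28 under 0.05 against 1.46%, and weighted limma voom called 0 members and 0 of all genes, with 2 of 28 against 7.07%. The smallest unadjusted p-values were those of Paqr6 in the neocortex (0.0675), Paqr8 in the neocortex (0.0885) and Paqr5 in the hypothalamus (0.0905), with edgeR adjusted p-values of 0.886, 0.903 and 1. In the 6 pairwise contrasts edgeR called 0 of 168 member comparisons, against 0% of all genes, with 5 (2.98%) under an unadjusted p of 0.05, against 3.12% over all genes. DESeq2 called 0 members, and of all genes 51 in the neocortex and 3 in the hippocampus, with 5 members (2.98%) under 0.05 against 1.76%. Weighted limma voom called 0 members, and of all genes 7 in the hippocampus and 1 in the hypothalamus, with 11 members (6.55%) under 0.05 against 7.01%.

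The interaction of stage and region, tested over all 47 libraries, called 0 of 7 members by edgeR, against 0% of all genes. The unadjusted p-values ran from 0.172 for Paqr6 to 0.989 for Paqr8. DESeq2 called 0 members and 2 of all genes, weighted limma voom 0 of either, and 0 of 7 were under an unadjusted p of 0.05 in each of the 3 tools, against 1.52% of all genes with edgeR, 1.82% with DESeq2 and 6.43% with weighted limma voom.

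A test that misses its threshold does not show equal levels, so 95% intervals of the stage differences were taken from limma voom. Of 42 member comparisons in a region, the interval lay within 2-fold in 39 for the hypothalamus, 42 for the hippocampus, 40 for the neocortex and 38 for the cerebellum. Over all genes the share was 84.7% for the hypothalamus, 85.6% for the hippocampus, 89.4% for the neocortex and 90.4% for the cerebellum. Of the 9 intervals that reached past 2-fold, 8 were those of Paqr5 and 1 was that of Paqr6 in the neocortex. The median width over the 6 contrasts was 0.26 to 0.41 log2 for Pgrmc1 and 1.19 to 1.44 log2 for Paqr5.

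**Figure D4:**
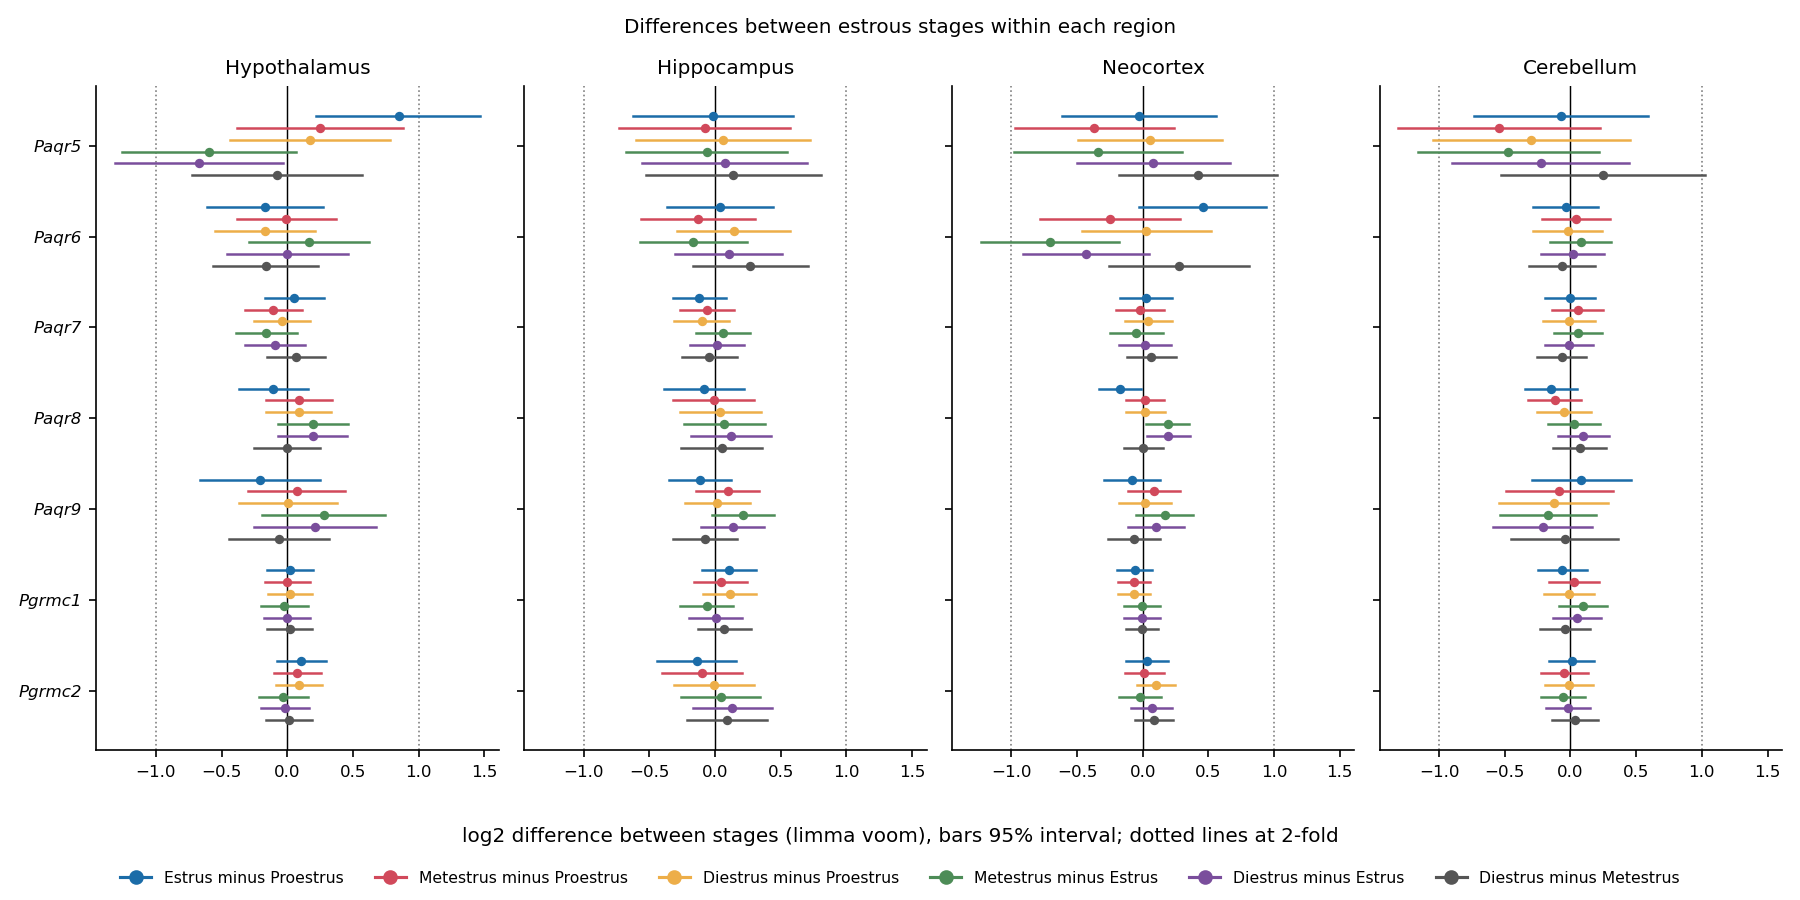
Differences between estrous stages in log2 (x axis), 1 panel per region and 6 contrasts per gene; points are limma voom estimates, bars 95% intervals and dotted lines mark 2-fold. The intervals of Pgrmc1, Pgrmc2, Paqr7, Paqr8 and Paqr9 stay inside 2-fold in the 4 regions, and those of Paqr5 reach past it in the hypothalamus, neocortex and cerebellum.

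Pgrmc1 in the hypothalamus averaged 426 CPM in proestrus, 375 CPM in estrus, 384 CPM in metestrus and 446 CPM in diestrus (n = 3 each). With TMM scaling these means lay between 397 and 402 CPM, and the stage test gave an unadjusted edgeR p of 0.992 across all libraries of the region. Paqr8 in the cerebellum averaged 322 CPM in proestrus, 298 CPM in estrus, 304 CPM in metestrus and 319.6 CPM in diestrus, with an unadjusted edgeR p of 0.445. For both genes, the libraries of any 2 stages overlapped.

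Over all members and regions, the libraries of a pair of stages did not overlap in CPM in 11 of 168 comparisons (6.55%). There were 7 of them in the neocortex, where 16.7% of the comparisons of all genes had no overlap, 3 in the hypothalamus, against 6.2%, 1 in the cerebellum, against 6.92%, and 0 in the hippocampus, against 6.07%. Of the 7 in the neocortex, 5 involved estrus with its 2 libraries, where 24.8% to 28% of all genes had no overlap. The 3 in the hypothalamus were those of Paqr5 in estrus minus proestrus, Paqr8 in diestrus minus estrus and Paqr7 in diestrus minus metestrus. Over all genes, 5.26%, 11.9% and 9.88% had no overlap in these contrasts, in that order. The largest estimated stage difference was that of Paqr5 in the hypothalamus. Paqr5 had 5.10, 7.78 and 4.93 CPM in estrus libraries, against 3.33, 3.07 and 4.72 CPM in proestrus libraries. All estrus libraries were above all proestrus libraries, on 14, 29 and 9 counts in estrus and 17, 9 and 39 counts in proestrus. The difference did not pass (log2 0.87, SE 0.32, unadjusted p = 0.0166, edgeR adjusted p = 0.9999), and its 95% interval was 0.22 to 1.47 log2.

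Paqr6 in the neocortex had 2.63, 2.06 and 2.98 CPM in metestrus libraries, against 3.99 and 4.74 CPM in the 2 estrus libraries. The groups did not overlap, and the difference did not pass (log2 -0.72, SE 0.25, unadjusted p = 0.0105, edgeR adjusted p = 0.6628). Estrus was also above proestrus, where Paqr6 had 3.03, 3.495 and 2.76 CPM.

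Paqr8 in the neocortex had 149, 152 and 137 CPM in its metestrus libraries and 160.0, 139 and 140.4 CPM in its diestrus libraries, against 128 and 132 CPM in the 2 estrus libraries. Proestrus libraries, at 139, 140.1 and 154 CPM, were above both estrus libraries as well. The differences did not pass in metestrus minus estrus (log2 0.19, SE 0.08, unadjusted p = 0.0276, edgeR adjusted p = 0.6968), diestrus minus estrus (log2 0.20, SE 0.08, unadjusted p = 0.0229, edgeR adjusted p = 0.3427) or estrus minus proestrus (log2 -0.18, SE 0.08, unadjusted p = 0.0414, edgeR adjusted p = 0.5855).

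In the hypothalamus, a pair of gaps in CPM closed with TMM scaling. Paqr8 had 180.1, 157 and 149.5 CPM in diestrus libraries, against 114, 137 and 108 CPM in estrus libraries, and with TMM scaling 157, 152 and 129.6 CPM in diestrus, against 110.2, 126 and 159 CPM in estrus. Paqr7 had 90.7, 82.3 and 82.1 CPM in diestrus libraries, against 78.6, 69.1 and 63.5 CPM in metestrus libraries, and with TMM scaling 78.9, 79.6 and 71.2 CPM in diestrus, against 68.4, 77.0 and 75.5 CPM in metestrus. Pgrmc2 in the neocortex had 92.3, 87.5 and 86.9 CPM in diestrus libraries, against 84.4, 84.0 and 82.6 CPM in metestrus libraries, which did not overlap on either scale. Other gaps opened with TMM scaling. They were those of Paqr5 between estrus and both metestrus and diestrus in the hypothalamus and those of Paqr9 in the hippocampus and neocortex. The share of all genes without overlap was counted for CPM only, so these gaps have no background to be read against.

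Further genes came from 6 lists of other steroid receptors, relatives of the members, steroid and sterol genes and G proteins, 49 genes in all. Their counts are those past 2-fold by edgeR. Over all 18152 genes, 2425 were higher and 1190 lower in hypothalamus minus cerebellum, 2570 were higher and 1155 lower in hippocampus minus cerebellum and 1847 were higher and 1275 lower in neocortex minus cerebellum. In hypothalamus minus hippocampus 1311 were higher and 1602 lower, in hypothalamus minus neocortex 1955 were higher and 1250 lower and in hippocampus minus neocortex 1243 were higher and 440 lower. Of 6 other steroid receptor genes, 3 were higher and 0 lower (median log2 0.951 beside 0.014 over all genes) in hypothalamus minus cerebellum, 3 were higher and 0 lower (median log2 1.522 beside 0.042 over all genes) in hippocampus minus cerebellum and 2 were higher and 0 lower (median log2 0.255 beside -0.008 over all genes) in neocortex minus cerebellum. In hypothalamus minus hippocampus 1 was higher and 1 lower (median log2 0.503 beside -0.014 over all genes), in hypothalamus minus neocortex 2 were higher and 0 lower (median log2 0.026 beside -0.003 over all genes), and in hippocampus minus neocortex 2 were higher and 0 lower (median log2 0.307 beside 0.011 over all genes).

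Pgr, the nuclear progesterone receptor gene, had 21.4 ± 7.82 CPM in the hypothalamus, 12.5 ± 0.776 CPM in the hippocampus, 20.4 ± 1.66 CPM in the neocortex and 6.82 ± 1.37 CPM in the cerebellum (SD, n = 12, and 11 in the neocortex). It was past 2-fold in neocortex minus cerebellum (log2 1.76) and in hypothalamus minus cerebellum. Esr1, the estrogen receptor alpha gene, had 27.1 CPM in the hypothalamus, 2.70 CPM in the hippocampus, 1.95 CPM in the neocortex and 0.595 CPM in the cerebellum, and was past 2-fold in hypothalamus minus each other region. The cerebellum thus had the lowest mean of Pgr and Esr1 and the highest of Paqr6 and Paqr8. Of the other members, Paqr9 (22.4 CPM), Pgrmc1 (155.9 CPM) and Pgrmc2 (74.05 CPM) also had their lowest mean there, and Paqr5 and Paqr7 did not. By edgeR, the cerebellum did not differ from the hypothalamus for Paqr9, the hippocampus for Paqr7 or the neocortex for Paqr5 past the threshold. Nr3c2, the mineralocorticoid receptor gene, had 171 CPM in the hippocampus and 33.2 to 36.3 CPM in the other 3 regions.

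Of 6 PAQR family genes outside the progestin receptors, Mmd was the only one past 2-fold in any of the 6 contrasts, and the list's median log2 difference ran over -0.297 to 0.21, against -0.014 to 0.042 over all genes. It had 59.6 CPM in the hypothalamus, 244 CPM in the hippocampus, 214 CPM in the neocortex and 39.4 CPM in the cerebellum. Adipor1 and Adipor2, the adiponectin receptor genes, had between 49.2 and 81.3 CPM and between 53.3 and 81.5 CPM, each highest in the cerebellum, and Paqr4 had between 36.0 and 69.4 CPM. Of 5 other cytochrome b5 domain genes, relatives of Pgrmc1, 0 were past 2-fold in any contrast (medians -0.029 to 0.327). Nenf (neudesin) had between 20.5 and 27.6 CPM, Cyb5a between 19.2 and 26.2 CPM and Cyb5r4 between 46.1 and 79.8 CPM.

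Of 9 Pgrmc1 partners and sterol genes, 0 were past 2-fold in any contrast (medians -0.35 to 0.103). Tmem97, the sigma-2 receptor gene, had 7.64 CPM in the hypothalamus, 8.20 CPM in the hippocampus, 12.97 CPM in the neocortex and 8.79 CPM in the cerebellum. Insig1, whose protein holds back sterol synthesis, had between 62.8 and 95.2 CPM, and Por, the reductase that serves cytochrome P450 enzymes, between 40.8 and 64.7 CPM. Of 8 genes of G proteins and adaptors, 0 were past 2-fold (medians -0.261 to 0.092). Gnas, the stimulatory G protein gene, had 1197 CPM in the hypothalamus and 647 CPM in the cerebellum (log2 0.93). Gnai1, an inhibitory G protein gene, had 109.9 CPM and 187 CPM in these regions (log2 -0.72), and Vldlr 84.1 CPM and 152 CPM (log2 -0.82).

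Of 15 genes of progesterone and neurosteroid synthesis and turnover, 11 could be tested between regions, and Cyp11a1 and Hsd3b2 were the ones past 2-fold. The counts were 1 higher and 1 lower in hypothalamus minus neocortex and in hypothalamus minus cerebellum, 0 higher and 1 lower in hypothalamus minus hippocampus, 1 higher and 0 lower in hippocampus minus neocortex and in neocortex minus cerebellum, and 0 in hippocampus minus cerebellum (medians -0.267 to 0.031). Cyp11a1, whose enzyme makes pregnenolone from cholesterol, was scarce, with 0.160 CPM in the hypothalamus, 1.26 CPM in the hippocampus, 2.61 CPM in the neocortex and 0.914 CPM in the cerebellum. Hsd3b2, of the family that turns pregnenolone into progesterone, had 234 CPM in the hypothalamus, 202 CPM in the hippocampus, 79.8 CPM in the neocortex and 99.9 CPM in the cerebellum. Its reads could be shared with overlapping or near-identical genes, which were looked for among the members only. Fdxr encodes a part of the electron supply of Cyp11a1. It had 12.3 CPM in the hypothalamus, 9.44 CPM in the hippocampus, 7.51 CPM in the neocortex and 18.8 CPM in the cerebellum. In the stage tests edgeR called 0 genes of these 6 lists in each region, and 3 had an unadjusted p under 0.05, Cyp11a1 in the hippocampus and Adipor2 and Gnai3 in the neocortex. Gnai3 is named for this count, after its value was seen.

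**Figure D5:**
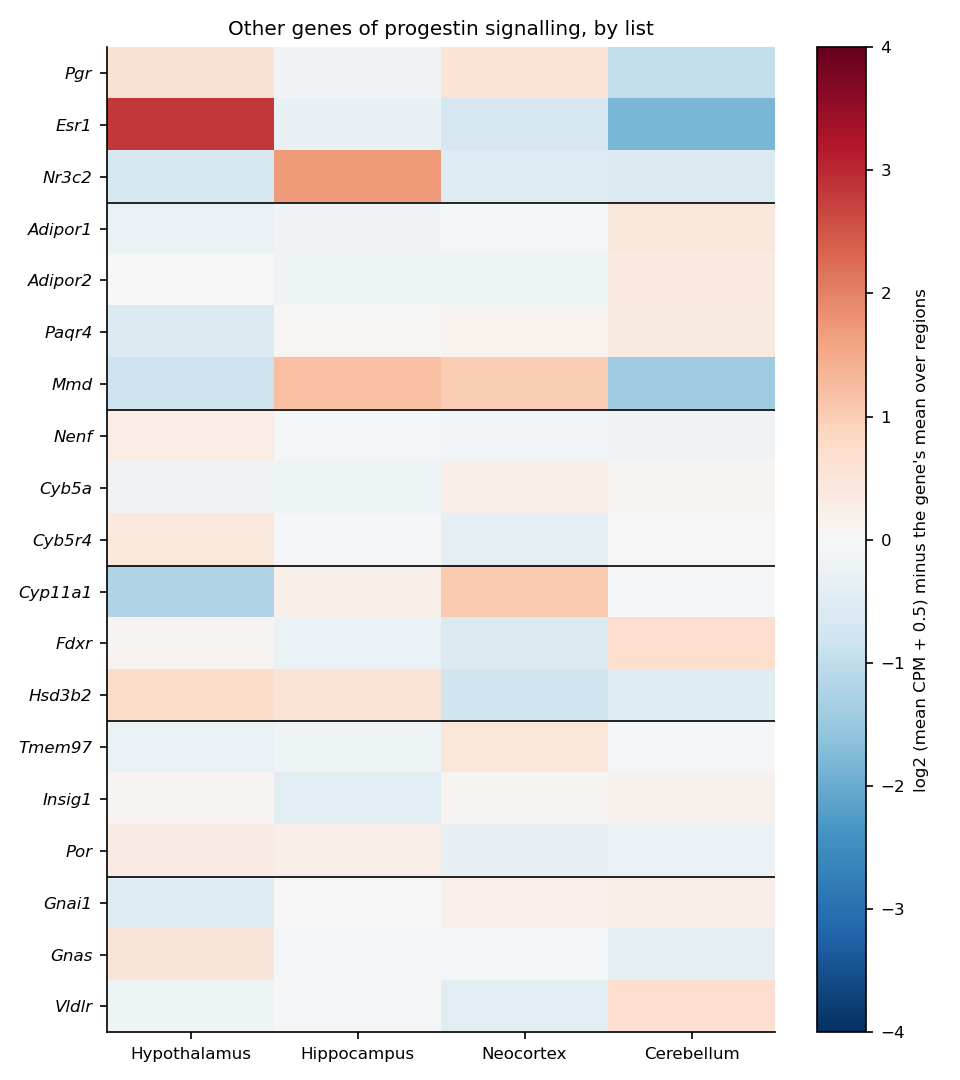
Mean level by region of genes from the further lists, as log2 (mean CPM + 0.5) minus each gene's mean over the 4 regions (colour scale). Rows are genes and lines separate the 6 lists. Esr1 is high in the hypothalamus and Nr3c2 in the hippocampus, and Mmd is high in the hippocampus and neocortex.

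For each member, the genes with the most similar levels over the 47 libraries were found by Pearson's r of log2 CPM, as a description with no test. Libraries of a region share its tissue and protocol. For Paqr6 they were Lhx5 (0.982), Ccdc24 (0.972) and Lhx1 (0.971). Lhx5, a LIM homeodomain transcription factor gene, had 10.6 CPM in the hypothalamus, 0.706 CPM in the hippocampus, 0.0305 CPM in the neocortex and 18.0 CPM in the cerebellum. For Paqr8 they were Mindy2 (0.973), Cep76 (0.963) and Lbx1 (0.955). Mindy2 had 99.8 CPM in the hypothalamus, 88.4 CPM in the hippocampus, 98.0 CPM in the neocortex and 300.3 CPM in the cerebellum. Lbx1 had 8.61 CPM in the cerebellum and at most 0.0172 CPM in the other regions.

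For Pgrmc1 they were Tmem130 (0.986), Ahi1 (0.984) and Slc6a11 (0.979), the last a GABA transporter gene. Tmem130 had 714 CPM in the hypothalamus, 164 CPM in the hippocampus, 138 CPM in the neocortex and 86.1 CPM in the cerebellum. For Paqr7 they were Ccdc184 (0.869), Trim66 (0.852) and Rps6kc1 (0.851), and for Paqr9 4930419G24Rik (0.866), Gm24328 (0.865) and Runx2 (0.855). For Pgrmc2 they were 5330438I03Rik (0.901), Jakmip1 (0.899) and Lmtk3 (0.894). Paqr5 had the lowest values, with Cd109 (0.736), Tns1 (0.721) and Bmp7 (0.711).

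Once each region's mean was subtracted, the values were lower. Paqr8 was nearest to Serinc3 (0.778), Nr1d2 (0.761) and Sdc4 (0.752); Nr1d2 encodes a nuclear receptor of the circadian clock. Paqr9 was nearest to Alox8 (0.717), Gm15609 (0.690) and Gm17022 (0.686), and Pgrmc1 to Timp2 (0.708), Vcam1 (0.665) and Gm20444 (0.647). Paqr5 was nearest to Prelp (0.700), Sema3b (0.674) and Cdkn1c (0.630), and Pgrmc2 to 2410131K14Rik (0.687), Apoe (0.684) and Wrnip1 (0.669). Paqr7 was nearest to Bcr (0.634), Ctif (0.619) and Klhl29 (0.612), and Paqr6 to C230038L03Rik (0.635), Ppp2r1a (0.631) and Arhgdia (0.590).

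Within each region, the members were set against scores of 6 cell type lists (neuron, oligodendrocyte, astrocyte, microglia, endothelium and pericyte, choroid plexus), which gave 168 relations over libraries. Pgrmc1 with the neuron score in the neocortex passed by Pearson's r (r = 0.89, permutation p = 0.00021, adjusted p = 0.0353, n = 11) and not by Spearman's rho (rho = 0.87, permutation p = 0.00094, adjusted p = 0.158). Without the 2 libraries farthest from the median score r was 0.87. No other relation passed by r, and 0 passed by rho. The 10 neuron genes summed to 6843 to 7440.0 CPM in neocortex libraries, 0 of them were without counts there, and their part in the level of Pgrmc1 was not tested.

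In the hippocampus, the choroid plexus score came near the threshold with both Paqr5 (r = 0.68, permutation p = 0.00098, adjusted p = 0.0549, rho = 0.80, permutation p = 0.00303, adjusted p = 0.255, n = 12) and Pgrmc1 (r = 0.78, permutation p = 0.00097, adjusted p = 0.0549, rho = 0.72, permutation p = 0.01030, adjusted p = 0.433, n = 12). Without the 2 farthest libraries r was 0.69 for Paqr5 and 0.47 for Pgrmc1. The 10 choroid plexus genes summed to 157 to 3380.0 CPM in hippocampus libraries, and their part in the levels of Paqr5 and Pgrmc1 was not tested.

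Among the 21 pairs of members in each region, 84 relations in all, 0 passed by Pearson's r or Spearman's rho, and 3 had an unadjusted permutation p under 0.05 for r. The pair with the smallest adjusted p was Paqr7 and Pgrmc2 in the cerebellum (r = -0.79, permutation p = 0.00108, adjusted p = 0.0907, rho = -0.85, permutation p = 0.00089, adjusted p = 0.0748, n = 12), and r was -0.65 without the 2 farthest libraries.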

How the data were processed

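The authors deposited raw counts per gene, 1 table per region, without normalization. Tools listed in the submitters' processing notes are TopHat2 2.0.8, the builds GRCm38 and mm10, Cufflinks 2.1.1, DESeq 1.12.1, Trimmomatic 0.32 and SAMtools, with no order. For the counting program, its use of strand and the annotation, no name is given in the sources used here. GENCODE M21 named 35533 of the 37315 identifiers. Counts were filtered with filterByExpr (minimum count 10, minimum total 15), scaled by TMM and tested with edgeR 4.0.16 (R 4.3.3), with intervals from limma 3.58.1 and DESeq2 1.42.0 as an alternative. The scripts were tested on simulated data. CPM (counts-per-million) was taken from a library's total, and correlations used log2 CPM with TMM scaling, a prior count of 2 and 100000 two-sided permutations, with Benjamini-Hochberg adjustment within each family.

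Samples were grouped by region and stage from the labels and treated as unpaired, and p-values measure the spread between libraries. The members and lists were chosen with earlier results of these data known. Some genes of these lists are not reported here. Genes named are the 7 members, Pgr, Esr1, Nenf, Adipor1, Adipor2, up to 3 genes per list with the widest range of region means, and the 3 genes most similar to each member. Alternatives covered scaling, filters, tools, the replicate block, age and left-out libraries.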

Additional observations from a re-analysis of the deposited data

How the results depend on the processing

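The alternatives were DESeq2, limma voom with sample quality weights, no filter on low counts, RLE factors, a minimum mean CPM of 1, age as a factor, the replicate block, each library left out, hypothalamus Estrus 3 and Metestrus 3 left out and, chosen after seeing the data, scaling by the total count. The count of members called by stage, in pairwise stage contrasts and by the interaction was 0 under each of them that was run. Over all genes, the stage test called 115 in the hypothalamus, 169 in the neocortex and 81 in the cerebellum with no filter on low counts, and the interaction 9. With the replicate block, 4, 5, 6, 5, 6 and 6 members differed in hypothalamus minus hippocampus, neocortex and cerebellum, hippocampus minus neocortex and cerebellum, and neocortex minus cerebellum. Of all 18152 genes, 13547, 13435, 13598, 11714, 13945 and 12448 differed with the block in these contrasts, in that order. The block added Paqr8 in the contrasts of the hypothalamus (log2 -0.13) and the hippocampus (log2 -0.11) with the neocortex, and no member in any other contrast. Libraries of the same stage and number deviated together (r over 0.1) in 11 of 69 pairs of regions, with 0 of 6 contrasts in which every pair did. Those of the same number in different stages did so in 10 of 69 pairs, with 1 of 24 contrasts in which every pair did, hippocampus diestrus minus proestrus (r = 0.267, 0.37 and 0.468), where the replicate block called 0 members and 0 of all genes. Whether libraries with equal numbers share an animal is not given; libraries of the same stage and number have the same labelled age in every region. Scaling by the total count put 2 members, in place of 1, past 2-fold in each of the 3 contrasts with the cerebellum. Of all 18152 genes, 3553, 3620 and 3093 were then past 2-fold in the contrasts of hypothalamus, hippocampus and neocortex. With TMM these counts were 3615, 3725 and 3122. With CPM of the total count, 25 relations with cell type scores passed in place of 1, and 3 pairs of members in place of 0. In the hypothalamus, r on that scale was positive with all 6 scores for both Paqr8 (0.458 to 0.904) and Paqr9 (0.0242 to 0.414). The part of library scale in these counts was not tested. No member's call was lost under any alternative. Within limits of 0.5 log2 in place of 1, the intervals of 29 of 42 comparisons stayed inside in the hypothalamus, against 50.6% of all comparisons. The counts were 31 in the hippocampus, against 51.7%, 30 in the neocortex, against 66.2%, and 33 in the cerebellum, against 65.2%.

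Signs turned only where the difference had not passed. In hypothalamus minus hippocampus, Paqr8 was 0.0207 with RLE factors, 0.0201 with a mean CPM of at least 1, 0.00388 with the total count, 0.0192 with DESeq2, 0.00143 with limma voom and -0.035 to 0.022 with a library left out. There Pgrmc2 was 0.0324 with RLE factors, 0.0325 with a mean CPM of at least 1, 0.0249 with the total count, 0.0291 with DESeq2 and -0.025 to 0.049 with a library left out. In hypothalamus minus neocortex, Paqr7 was 0.0697 with RLE factors, 0.0617 with a mean CPM of at least 1, 0.133 with the total count, 0.0608 with DESeq2 and -0.019 to 0.053 with a library left out. In hippocampus minus cerebellum, Paqr7 was -0.00577 with a mean CPM of at least 1, -0.000329 with the replicate block, -0.0699 with the total count, -0.0106 with limma voom and -0.027 to 0.013 with a library left out. With the total count Paqr8 was 0.0137 in hypothalamus minus neocortex and 0.00984 in hippocampus minus neocortex. Paqr5 in neocortex minus cerebellum was -0.170 to 0.014 with a library left out. The causes of these changes were not tested.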
